A study of Homo sapiens and Mus musculus with 100 samples.

Results

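HepG2 cells with an AhR inhibitor and either Kyn (kynurenine) or DMSO, read here as the solvent control, were sampled at day 12. The 3 libraries with Kyn were set against the 3 with DMSO across all genes. These 6 libraries are 6 of 100 in the series, which asks how cells respond to loss of vitamin B2 and what part AhR plays. HepG2, grown from a human liver tumour, keeps making plasma proteins of the hepatocyte. The same table holds 3 libraries with Kyn and 3 with DMSO that had no inhibitor. Both groups compared here carry the inhibitor, so the comparison gives the effect of Kyn in its presence. The dose of Kyn, the name and dose of the inhibitor and the medium of these libraries are not stated, and nothing says that the 3 libraries of a group came from separate cultures, so a p-value here reflects the spread between libraries alone, which may be technical.

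Kynurenine is made from tryptophan by the IDO and TDO enzymes and is known as a ligand of AhR, the aryl hydrocarbon receptor. Once bound, AhR enters the nucleus, pairs with ARNT and switches on genes of foreign-compound metabolism, among them CYP1A1 and members of the UGT1A locus, while AHRR and TIPARP feed back on it. Kynurenine is also carried into cells by amino acid transporters and broken down towards NAD, so not every response to it need pass through the receptor.

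Reads recovered from the values numbered 4049200 to 5822400 per library, and 11798 of 28035 listed genes passed a filter of TPM 1 or more in at least 3 of the 12 libraries. TPM is a level per transcript length, relative to all transcripts of the library. Hepatocyte markers were all detected (13 of 13 tested), with a summed level of 41800 to 42900 TPM with Kyn and inhibitor and 34700 to 35100 TPM with DMSO and inhibitor. In a bulk culture, more cells of a kind and more RNA per cell cannot be told apart. All 7 fibroblast markers stayed under 1 TPM in every library, as did 5 of 6 endothelial and 5 of 7 intestinal markers. Leukocyte markers summed to 461 to 520 TPM with Kyn and inhibitor and 595 to 629 TPM with DMSO and inhibitor, nearly all of it LYZ, while PTPRC and CD3E stayed under 1 TPM. Entries shorter than 200 bases took 5.35% to 6.65% of the listed TPM with Kyn and inhibitor, against 3.53% to 3.99% with DMSO and inhibitor, and their part in the results below was not tested except by leaving them out. RNU4ATAC, an RNA of the minor spliceosome, made up much of this, with 9947, 11351 and 10580 TPM with Kyn and inhibitor, against 4596, 5331 and 5627 TPM with DMSO and inhibitor. Without it the shares were 2.76% to 3.76% with Kyn and inhibitor, against 2.35% to 2.55% with DMSO and inhibitor.

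The promoters of 6 genes on which the results turn are shown, some with a motif and some without, from RefSeq (GRCh38.p14), as 250 bases before to 50 after the start of transcription, on the strand of the gene. For CYP1A1 (chr15:74725479-74725778, minus strand), UGT1A6 (2 entries, chr2:233691452-233691751 and chr2:233692640-233692939, plus strand) and NQO1 (chr16:69726511-69726810, minus strand), capitals mark GCGTG, the core that AhR and ARNT are known to bind, on either strand. The second UGT1A6 entry, which holds the start of the transcript measured here (233692866), has no GCGTG. For SPINK1 (chr5:147831622-147831921, minus strand), HAMP (chr19:35282278-35282577, plus strand) and SERPINA3 (chr14:94612141-94612440, plus strand), capitals mark TTCNNNGAA, a form of the site known for STAT factors, which reads the same on both strands. SERPINA3 has no such match and nor does SPP1, which is not printed.
CYP1A1: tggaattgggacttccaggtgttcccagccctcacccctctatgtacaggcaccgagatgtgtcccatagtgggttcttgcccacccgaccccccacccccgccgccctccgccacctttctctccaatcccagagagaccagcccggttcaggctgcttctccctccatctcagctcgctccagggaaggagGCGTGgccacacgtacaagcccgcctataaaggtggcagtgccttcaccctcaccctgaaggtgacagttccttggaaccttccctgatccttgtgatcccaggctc
UGT1A6 first entry: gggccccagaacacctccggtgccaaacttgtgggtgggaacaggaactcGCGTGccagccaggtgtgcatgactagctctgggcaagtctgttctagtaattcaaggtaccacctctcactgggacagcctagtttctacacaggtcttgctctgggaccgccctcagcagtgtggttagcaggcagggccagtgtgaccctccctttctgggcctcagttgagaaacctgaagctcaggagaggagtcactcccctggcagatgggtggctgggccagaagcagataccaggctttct
UGT1A6 second entry: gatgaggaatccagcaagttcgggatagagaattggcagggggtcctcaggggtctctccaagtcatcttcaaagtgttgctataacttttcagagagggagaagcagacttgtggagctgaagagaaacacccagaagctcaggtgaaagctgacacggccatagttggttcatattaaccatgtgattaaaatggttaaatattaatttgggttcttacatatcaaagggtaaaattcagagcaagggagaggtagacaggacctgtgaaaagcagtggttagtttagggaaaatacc
NQO1: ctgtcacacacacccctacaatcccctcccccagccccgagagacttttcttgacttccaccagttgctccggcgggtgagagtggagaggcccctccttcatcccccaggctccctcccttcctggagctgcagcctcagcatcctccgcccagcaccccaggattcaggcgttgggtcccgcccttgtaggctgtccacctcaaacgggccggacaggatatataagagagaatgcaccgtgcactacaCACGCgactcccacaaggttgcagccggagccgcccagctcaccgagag
SPINK1: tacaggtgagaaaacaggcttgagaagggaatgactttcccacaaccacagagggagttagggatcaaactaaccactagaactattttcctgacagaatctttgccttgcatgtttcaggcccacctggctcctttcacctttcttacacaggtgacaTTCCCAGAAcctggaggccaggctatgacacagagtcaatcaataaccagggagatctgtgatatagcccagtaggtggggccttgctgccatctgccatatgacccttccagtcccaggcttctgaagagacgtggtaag
HAMP: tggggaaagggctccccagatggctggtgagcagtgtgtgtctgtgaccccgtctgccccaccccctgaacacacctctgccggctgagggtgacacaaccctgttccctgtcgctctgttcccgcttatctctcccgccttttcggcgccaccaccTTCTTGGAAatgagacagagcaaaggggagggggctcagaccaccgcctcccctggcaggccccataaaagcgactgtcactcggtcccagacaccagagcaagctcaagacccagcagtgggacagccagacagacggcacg
SERPINA3: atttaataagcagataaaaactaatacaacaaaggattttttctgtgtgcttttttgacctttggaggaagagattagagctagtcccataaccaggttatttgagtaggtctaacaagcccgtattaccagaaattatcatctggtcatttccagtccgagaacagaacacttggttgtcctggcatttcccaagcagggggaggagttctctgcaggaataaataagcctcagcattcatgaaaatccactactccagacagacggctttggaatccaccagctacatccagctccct

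GCGTG stood in 36.5% of all 35116 promoters in the table, and TTCNNNGAA in 7.66%. Of the 11798 tested genes, 8815 had a promoter entry, and 58.1% of these held GCGTG. The share was 48% of 148 genes called higher and 60.6% of 824 called lower with Kyn under the inhibitor. For TTCNNNGAA the shares were 7.43% of the higher and 7.89% of the lower genes, against 8.27% of all those tested. A match is a stretch of letters and not a bound site.

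With the inhibitor present, readouts of AhR did not move together. CYP1A1, the xenobiotic-oxidising enzyme most used as an AhR readout, had 2.27, 1.63 and 3.23 TPM with Kyn and inhibitor, against 0.829, 1.03 and 1.33 TPM with DMSO and inhibitor. The groups did not overlap, at 38 to 76 against 13 to 24 recovered reads. CYP1A1 rose by a log2 fold change of 0.69 ± 0.17 (SE, n = 3 and 3), with an adjusted p of 0.0182 from limma. Its log2 fold change without the inhibitor was 0.18 (adjusted p 0.521), and the difference between the 2 responses did not pass (adjusted p 0.202). The call was held under 10 of 15 other settings. It was lost without replicate 3 (0.51, adjusted p 0.0734) or replicate 1 (0.70, adjusted p 0.05) of Kyn with inhibitor, without replicate 1 (0.61, adjusted p 0.0725) or replicate 2 (0.68, adjusted p 0.0522) of DMSO with inhibitor, and when only these 2 groups were fitted (adjusted p 0.0511).

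The UGT1A locus, whose enzymes attach glucuronic acid to bilirubin and drugs, is listed as 9 genes on chromosome 2 that share their last exons. The 3′ reads cannot tell them apart, so the 9 entries are read as a single measurement. UGT1A1 had 5.38, 4.78 and 4.25 TPM with Kyn and inhibitor, against 3.63, 4.21 and 4.04 TPM with DMSO and inhibitor. Its log2 fold change of 0.22 ± 0.13 did not pass (adjusted p 0.29). Without the inhibitor the 3 Kyn libraries had 40.5, 37.3 and 36.1 TPM, against 4.66, 3.25 and 2.91 TPM in the DMSO libraries, a log2 fold change of 3.10 (adjusted p 1.38e-09). The response of UGT1A1 with the inhibitor was lower than that without it by an interaction, the difference between the 2 log2 fold changes, of -2.87 (adjusted p 2.9e-07), or -2.75 relative to the median gene.

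NQO1, a quinone reductase that answers to AhR and to NRF2, went the other way from CYP1A1. It had 46.5, 54.0 and 57.2 TPM with Kyn and inhibitor, against 80.1, 77.7 and 77.6 TPM with DMSO and inhibitor. It fell by 0.57 ± 0.07 on the log2 scale (adjusted p 0.000178). Without the inhibitor its change was -0.07 (adjusted p 0.567), and the 2 responses differed (interaction -0.51, adjusted p 0.00548, and 0.0401 with equal medians). TIPARP, which represses AhR by ADP-ribosylation, had 4.12, 4.27 and 4.06 TPM with Kyn and inhibitor and 3.18, 3.65 and 3.39 TPM with DMSO and inhibitor, with a log2 fold change of 0.23 and an adjusted p of 0.175.

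The receptor gene itself had 4.53, 4.65 and 4.32 TPM of AHR mRNA with Kyn and inhibitor, against 5.41, 5.09 and 5.45 TPM with DMSO and inhibitor, and this did not pass (-0.20, adjusted p 0.154). ARNT, its partner, was at 2.67 to 3.37 TPM and 2.39 to 3.77 TPM in those 2 groups (-0.05, adjusted p 0.843). CYP1B1, CYP1A2 and AHRR were too low to be tested, with no library above 0.401 TPM. In DMSO the inhibitor alone changed 0% of genes at the threshold in limma (0 genes, with 520 genes at an unadjusted p under 0.05, of 11798), and CYP1A1 had 1.86, 1.51 and 1.84 TPM in the DMSO libraries without it.

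**Figure D1:**
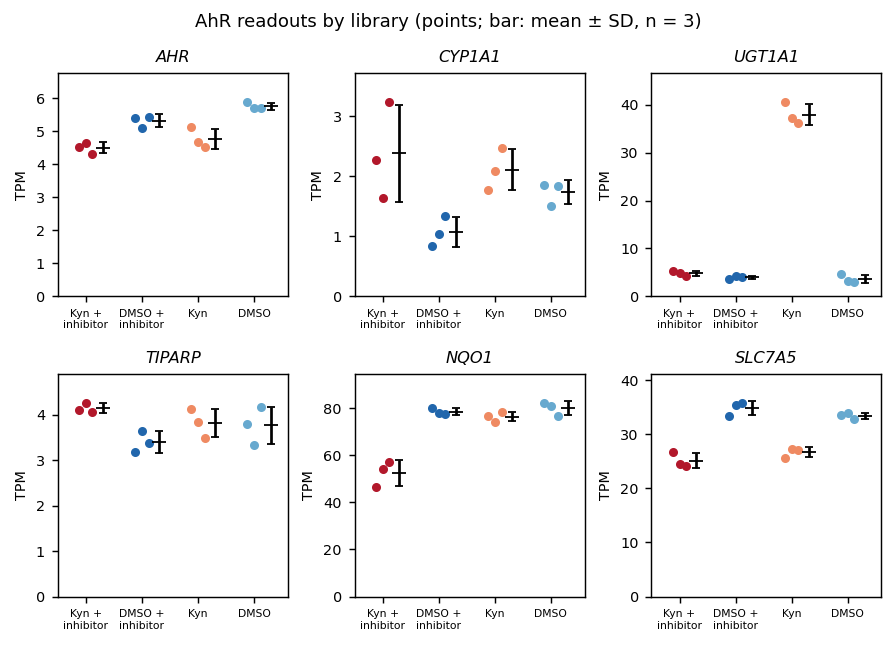
TPM of 6 AhR readouts in each library, in the order Kyn with inhibitor, DMSO with inhibitor, Kyn and DMSO, with points for libraries and bars for the mean and SD of 3. UGT1A1 stands at 36.1 to 40.5 TPM in the Kyn libraries without inhibitor and at 5.38 TPM or less in every other library, while NQO1 is lowest with Kyn and inhibitor.

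Across the transcriptome, 1279 genes passed an adjusted p of 0.05 with Kyn under the inhibitor, which is 10.8% of those tested. Of these, 205 were higher (1.74%) and 1074 lower (9.1%). The median gene lay at -0.10 on the log2 scale, and this uneven split depended on scaling. With libraries brought to the same distribution by quantile normalization 323 genes were higher (2.74%) and 425 lower (3.6%), and with equal medians 371 (3.14%) and 394 (3.34%). With entries under 200 bases left out, 233 were higher and 835 lower. Leaving out any 1 of the 6 libraries gave 113 to 136 higher and 636 to 862 lower genes, with the fewest calls without replicate 1 of DMSO with inhibitor. Most changes were small: 48 of the 1279 genes reached a log2 fold change of 1 in either direction, 24 each way.

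**Figure D2:**
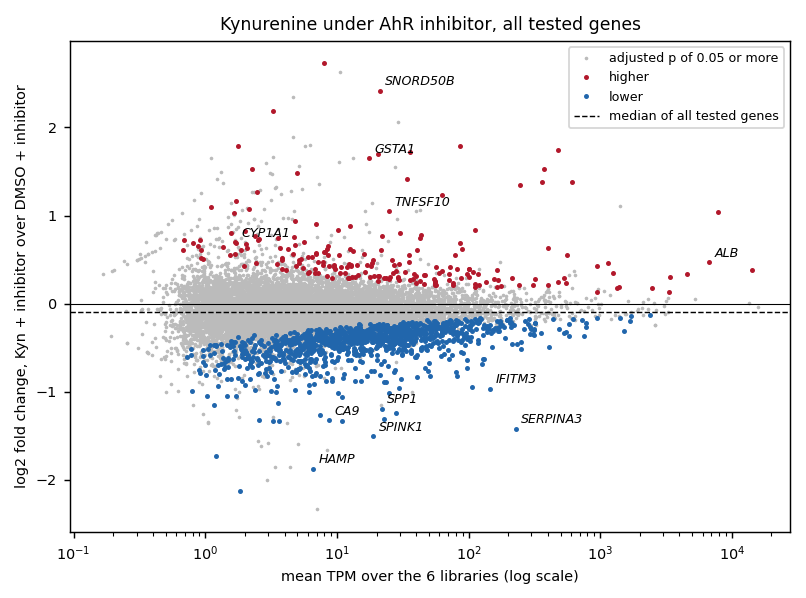
Log2 fold change of Kyn with inhibitor over DMSO with inhibitor (vertical axis, on log2(TPM + 1)) against the mean TPM of the 6 libraries (horizontal log axis), with each point a gene and coloured points past an adjusted p of 0.05. The cloud is centred just under 0, at -0.10 (dashed line), and SERPINA3 stands apart among abundant genes that fell.

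Among the 12 highest genes with a mean of at least 10 TPM, 10 were entries named for small nucleolar RNAs, with SNORD3P3 a pseudogene by its name. Another 1 was the microRNA precursor MIR1248. Many small nucleolar RNAs guide the modification of ribosomal RNA, and many are cut from introns of host genes. Of 237 tested entries annotated as small nucleolar RNA, 12 rose and 2 fell, and the 353 tested entries under 200 bases had a median log2 fold change of 0.13. SNORD79, within GAS5, had 43.2, 64.5 and 59.6 TPM with Kyn and inhibitor, against 14.9, 16.4 and 16.7 TPM with DMSO and inhibitor (1.72 ± 0.16, adjusted p 7.72e-05). SNORD50B, within SNHG5, had the largest log2 fold change of the 12 (2.42, adjusted p 0.00107), on 15 to 26 against 2 to 3 recovered reads.

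The others were SNORD3P3, SNORD26, SNORD3D, SNORD89, SNORD116-2, SNORA81, SNORD57 and SNORD107, with log2 fold changes of 1.23 to 1.79. SNORD26, within SNHG1, had 570, 832 and 813 TPM with Kyn and inhibitor and 189, 195 and 279 TPM with DMSO and inhibitor. MIR1248 and SNORA81 overlap within EIF4A2 and share reads. The kit primes from poly(A), and where there is a host transcript its reads cannot be told apart from those of the small RNA. SNORD3P3, SNORD3D and SNORD89 overlap no other tested gene by position. Several of these calls were often lost. SNORD57 was past the threshold under 6, SNORD3P3 under 7, SNORD26 under 8 and SNORD107 under 9 of 15 other settings, and SNORD3D under 8 of 16. MIR1248 and SNORA81 were past it under 11 of 15, and SNORD116-2 under 12 of 15. The highest adjusted p was 0.123, for SNORD3D without replicate 2 of DMSO with inhibitor.

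GSTA1, an alpha-class glutathione transferase of liver, was the remaining gene of the 12 and the highest protein-coding gene. It had 28.2, 23.3 and 29.7 TPM with Kyn and inhibitor, against 7.70, 7.32 and 8.67 TPM with DMSO and inhibitor, so the groups lay far apart. It rose by 1.65 ± 0.13 (adjusted p 1.4e-05). Without the inhibitor it also rose, by 0.93 (adjusted p 0.000616), and the rise with the inhibitor was the larger by 0.72 (adjusted p 0.0298), or 0.84 relative to the median gene. GSTA1 shares most of its sequence with its neighbours of the alpha class, so its reads may be divided among them.

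Since small RNAs filled the upper end, the 12 highest protein-coding genes were also listed, a choice made after their values were seen. After GSTA1 came TNFSF10, which encodes the death ligand TRAIL. It had 37.8, 31.3 and 32.6 TPM with Kyn and inhibitor and 14.4, 17.7 and 15.6 TPM with DMSO and inhibitor (1.05 ± 0.11, adjusted p 9.7e-05). SLC25A47, a mitochondrial carrier of liver, had 12.0, 15.0 and 13.0 TPM against 6.41, 7.46 and 7.28 TPM in the same groups (0.83, adjusted p 0.000394). The groups did not overlap for either gene.

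PDLIM2, a PDZ and LIM domain protein, rose by 0.75 (adjusted p 0.000158). LGALS2, a galectin, rose by 0.69, HAL, the histidine-degrading lyase, by 0.62, and SERPINC1, which encodes antithrombin, by 0.62. HIST1H2BD, a histone gene, rose by 0.88, though its adjusted p reached 0.0993 without replicate 2 of DMSO with inhibitor. MTRNR2L1, MTRNR2L2 and MTRNR2L8 rose by 0.76 to 0.83, but they are nuclear copies of mitochondrial ribosomal RNA and may have taken reads from it. ASDURF, which overlaps ASNSD1, closed the list at 0.61 and was past the threshold under 8 of 16 other settings.

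The 12 lowest genes with a mean of at least 10 TPM were led by SPINK1, a secreted trypsin inhibitor that hepatocytes make in inflammation. It had 7.31, 10.5 and 10.4 TPM with Kyn and inhibitor, against 27.1, 25.6 and 32.5 TPM with DMSO and inhibitor. It fell by 1.51 ± 0.16 on the log2 scale (adjusted p 0.000151). Without the inhibitor SPINK1 rose by 0.86 (adjusted p 0.00465), and the interaction was -2.37 (adjusted p 5.74e-05), or -2.25 relative to the median gene.

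SERPINA3, the acute phase antichymotrypsin, had 122, 113 and 135 TPM with Kyn and inhibitor, against 322, 335 and 340 TPM with DMSO and inhibitor. It fell by 1.42 ± 0.10 (adjusted p 1.23e-05), whereas its change without the inhibitor was -0.28 (adjusted p 0.0785). SPP1, which encodes osteopontin, had 12.4, 13.5 and 12.9 TPM against 30.0, 30.9 and 31.9 TPM in the same groups. It had the smallest adjusted p of all genes in this comparison, 2.56e-07, at a log2 fold change of -1.20 ± 0.06. SPP1 also fell without the inhibitor, by 0.47 (adjusted p 0.000268), and the interaction was -0.72 (adjusted p 0.000189), or -0.60 relative to the median gene.

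The other genes of the 12 were MATN3, ODAM, MIR3168, SEMA3B, C5-OT1, TNFRSF21, IFITM3, TUBB3 and IFITM2, with log2 fold changes of -1.34 to -0.95. ODAM, an odontogenic ameloblast-associated protein, had 9.07, 12.0 and 17.7 TPM with Kyn and inhibitor and 32.4, 32.1 and 32.9 TPM with DMSO and inhibitor. MATN3 is a matrix protein, SEMA3B a secreted semaphorin, TNFRSF21 a death receptor and TUBB3 a class III beta-tubulin. IFITM3 and IFITM2, near-identical membrane proteins that block virus entry, had log2 fold changes of -0.97 and -0.95 and can share reads. C5-OT1 overlaps complement C5, and the call for MIR3168 was lost under 5 of 15 other settings.

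**Figure D3:**
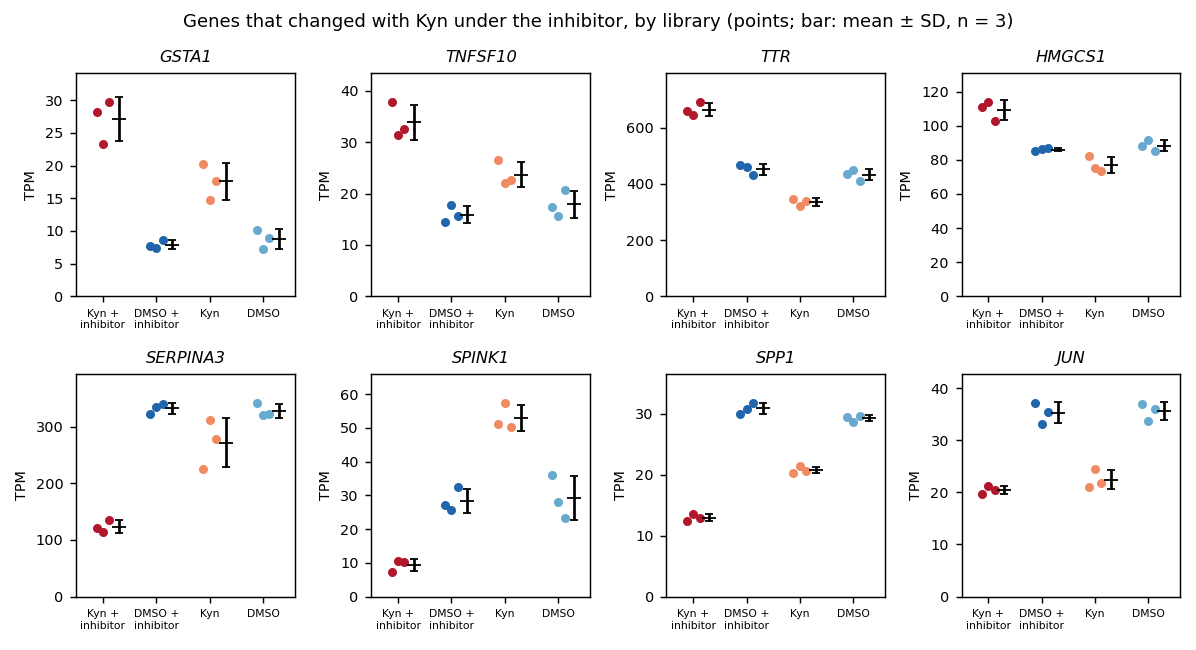
TPM in each library for 4 genes that rose (GSTA1, TNFSF10, TTR, HMGCS1) and 4 that fell (SERPINA3, SPINK1, SPP1, JUN) with Kyn under the inhibitor, with points for libraries and bars for the mean and SD of 3. In every panel the 3 libraries of Kyn with inhibitor lie clear of the 3 of DMSO with inhibitor, and SPINK1 and TTR lie on opposite sides of DMSO in the 2 groups with Kyn.

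Gene groups were then read against the background of 1.74% higher and 9.1% lower. Secreted hepatocyte proteins leaned upward, with 12 of 21 tested members higher and 0 lower, and a median of 0.18 against -0.10 for all genes. TTR, which carries thyroid hormone and retinol, had 658, 646 and 691 TPM with Kyn and inhibitor, against 467, 461 and 431 TPM with DMSO and inhibitor (0.55, adjusted p 2.88e-05). ALB, albumin, rose by 0.47 and APOC3, an inhibitor of lipoprotein lipase, by 0.46. ALB turned to -0.38 under quantile normalization, which assigns the top ranks fixed values, while 9 members were then higher and 1 lower.

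Cholesterol synthesis genes, the targets of SREBP2, had 8 of 24 members higher and 1 lower, with a median of 0.19. Under quantile normalization 15 were higher and 0 lower. HMGCS1, which makes HMG-CoA, had 111, 114 and 103 TPM with Kyn and inhibitor, against 85.2, 86.4 and 86.7 TPM with DMSO and inhibitor (0.34, adjusted p 0.00261). SC5D and DHCR7, enzymes of the last steps, rose by 0.46 and 0.35. STARD4, a sterol carrier, had a log2 fold change of 0.39 that did not pass (adjusted p 0.0818).

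Fatty acid synthesis had 3 of 19 members higher and 0 lower, with a median of 0.06. FADS2, a desaturase, rose by 0.59, and ELOVL6, an elongase, had 45.1, 42.0 and 39.5 TPM with Kyn and inhibitor, against 26.9, 29.4 and 29.1 TPM with DMSO and inhibitor (0.55, adjusted p 0.00283). SCD, the stearoyl desaturase, rose by 0.22, and its adjusted p reached 0.083 without replicate 2 of Kyn with inhibitor. AGPAT2 had 0.41 and did not pass. FADS2 overlaps FADS1 by position.

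PPARA targets, genes of fat oxidation, had 4 of 15 members higher and 0 lower, with a median of 0.22. CREB3L3, a liver membrane-bound transcription factor, had 6.97, 5.38 and 6.16 TPM with Kyn and inhibitor, against 3.41, 2.97 and 3.31 TPM with DMSO and inhibitor (0.76, adjusted p 0.00275). ACADM, an acyl-CoA dehydrogenase, rose by 0.36 and was past the threshold under 13 of 16 other settings. ETFDH had 0.38 and did not pass.

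Bile acid genes had 3 of 12 members higher and 1 lower, with a median of 0.18. CYP7A1, the rate-limiting enzyme of bile acid synthesis, had 2.29, 1.48 and 1.86 TPM with Kyn and inhibitor, against 0.892, 1.02 and 0.621 TPM with DMSO and inhibitor (0.64, adjusted p 0.0165, lost under 3 of 15 other settings). SLC51A, a subunit of the basolateral bile acid exporter, rose by 0.56 (adjusted p 0.00279). Its partner SLC51B had 0.87 and did not pass (adjusted p 0.0993), nor did SLC27A5 (-0.45). BAAT, which conjugates bile acids to glycine and taurine, was the member that fell, by 0.44.

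Acute phase proteins had 6 of 13 members lower and 2 higher, with a median of -0.38. This split depended on scaling, with 5 lower and 2 higher under quantile normalization and 4 lower and 3 higher with equal medians. Besides SERPINA3, the iron hormone HAMP had 0.409, 3.55 and 3.71 TPM with Kyn and inhibitor, against 8.49, 10.5 and 12.7 TPM with DMSO and inhibitor. HAMP fell by 1.88 ± 0.43 (adjusted p 0.0244) on 2 to 19 against 29 to 50 recovered reads, and its adjusted p was 0.128 when only these 2 groups were fitted. Without any 1 of replicates 1, 2 and 3 of DMSO with inhibitor the adjusted p was 0.054, 0.0704 and 0.0781, and without replicate 1 of Kyn with inhibitor, the lowest library, HAMP fell by 1.31 (adjusted p 0.00342). Complement C3 fell by 0.46, and HP, haptoglobin, had -0.45 and did not pass. The 2 higher members were the fibrinogen chains FGA and FGB, both at 0.21. Of 9 tested members with a promoter entry, 3 held TTCNNNGAA, against 8.27% of all tested genes with an entry. HAMP was among the 3 and SERPINA3 was not, and no link between the motif and direction was tested.

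Immediate early genes, which answer growth and stress signals within minutes, had 10 of 16 members lower and 0 higher, with a median of -0.39. JUN had 19.6, 21.2 and 20.5 TPM with Kyn and inhibitor, against 37.2, 33.2 and 35.4 TPM with DMSO and inhibitor (-0.76, adjusted p 5.01e-05). EGR1 fell by 0.88 and MYC by 0.82. FOS fell by 0.66, but it was past the threshold under 6 of 15 other settings. Under quantile normalization 6 members were lower.

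Biliary and progenitor markers had 5 of 6 tested members lower and 0 higher, with a median of -0.56, and 4 were lower under quantile normalization. Beside SPP1, the tight junction gene CLDN4 fell by 0.64, the keratin KRT19 by 0.63 and the transcription factor SOX4 by 0.49. KRT19 had 6.11, 5.56 and 6.44 TPM with Kyn and inhibitor, against 11.5, 9.65 and 8.72 TPM with DMSO and inhibitor.

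Stress programmes also stood on the lower side. Endoplasmic reticulum chaperones had 8 of 18 members lower and 0 higher, with a median of -0.27, and 5 were lower under quantile normalization. MANF, a secreted chaperone-like factor of the unfolded protein response, had 75.7, 78.0 and 74.2 TPM with Kyn and inhibitor, against 121, 121 and 114 TPM with DMSO and inhibitor (-0.64, adjusted p 1.42e-05). P4HB, a protein disulfide isomerase, fell by 0.45, DNAJB9 by 0.44 and SDF2L1 by 0.48, the last being past the threshold under 7 of 16 other settings.

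The integrated stress response had 11 of 23 members lower and 0 higher, with a median of -0.26, and 6 were lower under quantile normalization. CEBPB, a liver transcription factor, had 62.8, 78.1 and 70.9 TPM with Kyn and inhibitor, against 98.4, 107 and 105 TPM with DMSO and inhibitor (-0.55, adjusted p 0.000305). ASNS, asparagine synthetase, fell by 0.43, DDIT4, an mTOR inhibitor, by 0.42 and SESN2 by 0.40, SESN2 being past the threshold under 9 of 16 other settings.

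Amino acid transporters had 6 of 15 members lower and 0 higher, with a median of -0.21, and 5 were lower under quantile normalization. SLC3A2, the heavy chain of several of them, had 46.3, 43.3 and 45.9 TPM with Kyn and inhibitor, against 62.5, 62.7 and 60.2 TPM with DMSO and inhibitor (-0.44, adjusted p 0.00177). SLC7A1, an importer of arginine and lysine, fell by 0.45.

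Heat shock genes had 5 of 12 members lower and 0 higher, with a median of -0.19, and 3 were lower under quantile normalization. HSPB1, a small heat shock protein, had 32.8, 37.0 and 39.7 TPM with Kyn and inhibitor, against 62.4, 67.2 and 66.7 TPM with DMSO and inhibitor (-0.83, adjusted p 0.000178). HSPA1A and HSPA1B, near-identical copies that can share reads, fell by 0.57 and 0.53. DNAJB1, their co-chaperone, fell by 0.39, with an adjusted p of 0.0535 under quantile normalization and 0.0521 with equal medians.

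Of the chemokine and NF-kB feedback genes 7 were tested, with 3 lower and 0 higher and a median of -0.38, while CXCL8, CXCL1 and CCL2 were too low to be tested. ICAM1, an adhesion molecule, had 2.69, 3.97 and 3.40 TPM with Kyn and inhibitor, against 6.64, 6.52 and 6.05 TPM with DMSO and inhibitor (-0.78, adjusted p 0.00141). TNFAIP3, a feedback inhibitor of NF-kB, fell by 0.64 and the cytokine IL32 by 0.38, whereas RELB had -0.46 and did not pass.

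Hypoxia and glycolysis genes had 5 of 18 members lower and 0 higher, with a median of -0.11 that lay at the median of all genes, and 3 were lower under quantile normalization. CA9, a carbonic anhydrase induced by hypoxia, had 3.79, 5.28 and 4.57 TPM with Kyn and inhibitor, against 14.2, 12.5 and 11.9 TPM with DMSO and inhibitor (-1.33, adjusted p 5.78e-05). It fell without the inhibitor as well, by 1.01 (adjusted p 0.000283), and the interaction did not pass (adjusted p 0.314). PGK1, a glycolytic kinase, fell by 0.41, and PFKFB3 fell by 0.62, past the threshold under 7 of 15 other settings. ADM had -0.42 and did not pass.

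NRF2 targets had 8 of 22 members lower and 0 higher, with a median of -0.19, and 5 were lower and 1 higher under quantile normalization. SLC7A11, the cystine importer, had 4.35, 4.50 and 4.66 TPM with Kyn and inhibitor, against 6.94, 7.49 and 7.39 TPM with DMSO and inhibitor (-0.59, adjusted p 0.00166). MGST1, a membrane glutathione transferase, fell by 0.49. AKR1B10 fell by 0.56, and it was past the threshold under 7 of 15 other settings. GSTA1, which rose most among protein-coding genes, belongs to no list used here.

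Of the AhR targets in the list, 6 passed the filter, with 1 higher (CYP1A1) and 3 lower (NQO1, SLC7A5 and STC2), and a median of -0.03. SLC7A5, which with SLC3A2 forms the large amino acid transporter known to carry kynurenine, had 26.7, 24.5 and 24.1 TPM with Kyn and inhibitor, against 33.4, 35.4 and 35.9 TPM with DMSO and inhibitor (-0.46, adjusted p 0.000536). STC2, a secreted glycoprotein hormone, fell by 0.26, and it was past the threshold under 5 of 16 other settings. All 6 had GCGTG in a promoter entry, against 58.1% of all tested genes with an entry. A gene with several entries counted if any of them held it. UGT1A6 counted in this way, although its entry at the measured start has none.

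The kynurenine pathway and NAD genes had 1 of 13 tested members lower, WARS, and 0 higher, with a median of -0.04, which is close to the background. WARS, the tryptophanyl-tRNA synthetase, fell by 0.51 (adjusted p 0.025, and 0.104 with equal medians). KMO, which hydroxylates kynurenine, had -0.35 and HAAO, a later enzyme, 0.30, and neither passed. TDO2, IDO1 and IDO2, which open the tryptophan ring, did not pass the filter.

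Cell cycle genes had 8 of 20 members lower and 0 higher, with a median of -0.31, but 2 were lower under quantile normalization. MCM5, a replicative helicase subunit, had 1.79, 1.91 and 2.38 TPM with Kyn and inhibitor, against 4.05, 4.49 and 3.52 TPM with DMSO and inhibitor (-0.73, adjusted p 0.00275). CCNB2, a mitotic cyclin, fell by 0.52. The mitotic kinase AURKB and the anaphase activator CDC20 fell by 0.59 and 0.56, and were past the threshold under 8 and 3 of 16 other settings. Nuclear genes of the respiratory chain (0 of 40 higher, 1 lower, median -0.03) and proteasome genes (0 of 26 higher, 1 lower, median -0.08) were below the background share in the lower direction, and with equal medians 5 of the respiratory chain genes were higher and 0 lower.

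**Figure D4:**
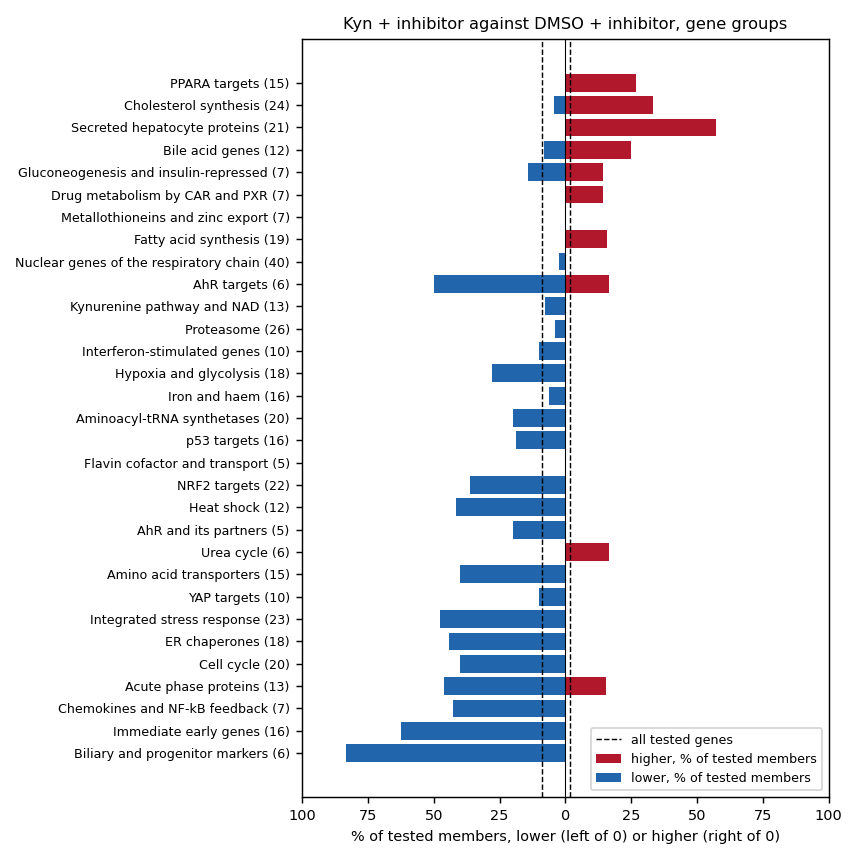
Share of tested members past an adjusted p of 0.05 with Kyn and inhibitor against DMSO and inhibitor, higher to the right and lower to the left, for gene groups with at least 5 tested members (number in parentheses), sorted by median. Dashed lines give the share of all tested genes, 1.74% higher and 9.1% lower, and secreted hepatocyte proteins and biliary markers reach furthest from them.

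The response with the inhibitor was then set against the response of the 6 libraries without it, which share no library with it. Without the inhibitor 1375 genes passed (11.7%), 721 higher (6.11%) and 654 lower (5.54%). Both comparisons called 313 genes, 24.5% of the genes called with the inhibitor and 22.8% of those called without it. Of these, 216 moved in the same direction and 97 in opposite directions. Across the 11798 genes the log2 fold changes had a Pearson r of 0.15, a description over genes that are not independent. Without the inhibitor, 9 of 23 integrated stress response genes were lower and 0 higher. Immediate early genes had 6 of 16 lower and 2 higher, and amino acid transporters 5 of 15 lower and 1 higher. Endoplasmic reticulum chaperones had 0 of 18 lower and 0 higher, and heat shock genes 1 of 12 lower and 0 higher. Acute phase proteins had 2 of 13 lower and 5 higher.

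The interaction, the response with the inhibitor minus that without, passed in 1055 genes (8.94%), 249 above 0 (2.11%) and 806 below (6.83%). The median gene had an interaction of -0.12, and with equal medians 464 genes were above 0 (3.93%) and 314 below (2.66%), so single values below are given relative to that median, while each adjusted p tests the interaction before that shift. Of the 1279 genes called with the inhibitor, 462 (36.1%) also had an interaction past the threshold. The interaction takes in the same libraries that made those calls, so this share cannot be weighed against the 8.94% of all genes.

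At the upper end of the interaction stood SAA4 and HSD17B2, which Kyn lowered without the inhibitor. SAA4, a constitutive serum amyloid A, had 74.7, 54.5 and 68.4 TPM with Kyn and inhibitor, against 64.7, 57.9 and 59.7 TPM with DMSO and inhibitor (0.10, adjusted p 0.795). It averaged 11.1 TPM with Kyn alone and 64.6 TPM with DMSO alone (-2.46, adjusted p 6.14e-05), giving an interaction of 2.68 (adjusted p 0.0007). SAA2-SAA4 is a read-through entry of the same reads.

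HSD17B2, which inactivates sex steroids, had an interaction of 1.78 and SLC51A of 1.74, with log2 fold changes of 0.47 and 0.56 under the inhibitor and -1.19 and -1.06 without it. SLC51A therefore passed in opposite directions. MT1G, a metallothionein, had an interaction of 2.35 (adjusted p 0.0276), but neither of its responses passed alone and its reads may be shared with near-identical family members. LOC101929633, a non-coding entry within COBLL1, had an interaction of 1.98.

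At the lower end the 6 genes named were all UGT1A entries. The next, chosen after their values were seen, were SPINK1, ODAM, EGR1, NOTUM, BAAT and FGA. NOTUM, a secreted Wnt deacylase, had 64.4, 81.5 and 74.5 TPM with Kyn and inhibitor, against 118, 125 and 123 TPM with DMSO and inhibitor, and averaged 193 TPM with Kyn alone against 115 TPM with DMSO alone. It fell by 0.73 with the inhibitor (adjusted p 7.72e-05) and rose by 0.74 without it (adjusted p 3.28e-05).

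FGA, the fibrinogen alpha chain, had 339, 334 and 319 TPM with Kyn and inhibitor, against 287, 278 and 290 TPM with DMSO and inhibitor (0.21, adjusted p 0.0132, and 0.0729 with eBayes lacking trend and robust settings). With Kyn alone it averaged 838 TPM, against 298 TPM with DMSO alone (1.49, adjusted p 2.64e-10). BAAT and EGR1, like NOTUM and SPINK1, fell with the inhibitor and rose without it.

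**Figure D5:**
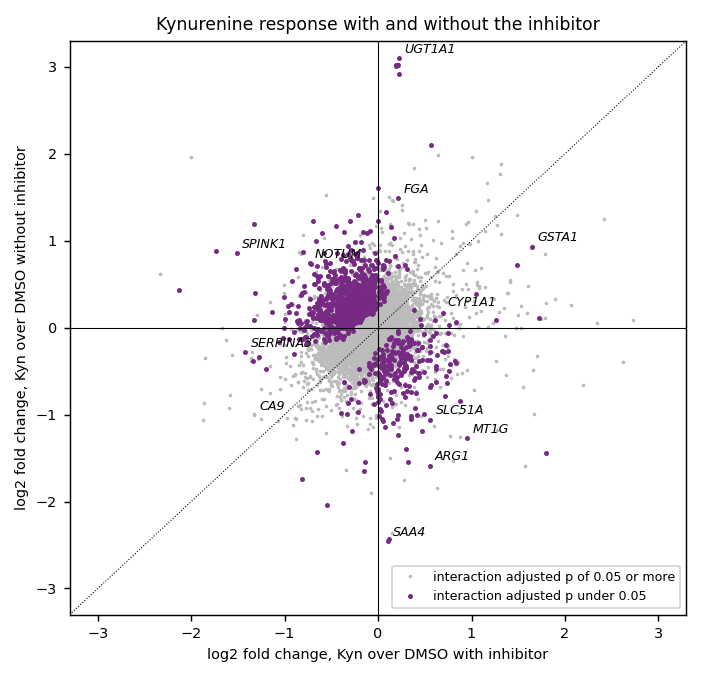
Log2 fold change of Kyn over DMSO with the inhibitor (horizontal) and without it (vertical), on log2(TPM + 1), with each point a gene and purple points past an adjusted p of 0.05 in the interaction. UGT1A1 lies near 0 on the horizontal axis and at 3.10 on the vertical, SAA4 near 0 and at -2.46, and SPINK1 in the quadrant of opposite directions.

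A separate table holds HepG2 deprived of vitamin B2 for 12 days under an AhR inhibitor (3 libraries) and its control under the inhibitor (3 libraries). The column headers of those libraries state an inhibitor dose, while those of the Kyn libraries do not, so the doses may differ. That table was normalized apart, so the values stand side by side with no joint test. Deprivation moved 57.4% of the 11287 genes tested in both tables past the threshold, 44.8% higher and 12.6% lower. Of the 1250 genes called with Kyn under the inhibitor, 853 were called there as well (68.2%). Among these, genes lower with Kyn were higher with deprivation in 608 cases and lower in 116, and genes higher with Kyn were lower with deprivation in 106 cases and higher in 23. Of the 1051 genes lower with Kyn, 57.8% were thus higher and 11% lower with deprivation. Of the 199 higher with Kyn, 11.6% were higher and 53.3% lower with deprivation. These counts are given only for TPM without further scaling, and how they depend on scaling was not tested. With equal medians, the genes called lower with Kyn under the inhibitor went from 1074 to 394 of all 11798 tested.

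SPP1 had a log2 fold change of -1.20 with Kyn and 6.21 with deprivation, both under the inhibitor. NQO1 had -0.57 and 1.75, SERPINA3 -1.42 and 0.88, ALB 0.47 and -2.51, and HMGCS1 0.34 and -1.21 in the same order. Among all 853 genes called in both tables, 608 and 106 moved in opposite directions and 116 and 23 in the same one. Of 69 named genes called in both, many of them picked for large values with Kyn, 55 moved in opposite directions and 14 in the same one. Among the 14, CA9 had -1.33 with Kyn and -4.17 with deprivation, ODAM -1.31 and -1.17, C3 -0.46 and -1.34, FOS -0.66 and -1.12 and JUN -0.76 and -0.36. CYP1A1 had 0.69 with Kyn and -0.90 with deprivation, and UGT1A1 had 0.22 and -0.13, neither past the threshold. Replicate 3 of the deprivation table's control with inhibitor stood apart from its group. Without it, genes lower with Kyn were higher with deprivation in 700 cases and lower in 126. Genes higher with Kyn were then lower with deprivation in 112 cases and higher in 26.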

How the data were processed

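Messenger RNA of HepG2 was measured with a 3′ kit that primes at poly(A), per the labels' protocols. The deposited values are TPM, computed by the authors with HOMER per the file headers, with 1 transcript length per gene. The submitters' processing notes name STAR, Bowtie2 and HOMER beside the builds hg38 and mm10, without saying what each did. TPM divides by length although a 3′ kit reads ends, so levels are compared between libraries and not between genes. The listed TPM summed to 383389 to 395272 per library.

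All 12 libraries that share the Kyn file were fitted with limma 3.58.1 in R 4.3.3 (packages data.table, version 1.17.8, and jsonlite, version 2.0.0) on log2(TPM + 1), which understates the change of low genes, with 1 mean per group and moderated variances (eBayes, with the trend and robust options). The other table was fitted in the same way on its own. Tests were two-sided, with Benjamini-Hochberg adjustment over all tested genes and a threshold of 0.05, and all adjusted p-values come from limma. The fit was also run on simulated data with the same spread in every group. The groups here differed in spread, so that run cannot show how the fit handles unequal spread. Figures were drawn with matplotlib 3.10.9 in Python 3.11.15. Reads were recovered as whole multiples of TPM times length (100% of values checked were within 0.1 of a whole number), and intervals from such counts would cover counting error only. Replicate pairs differed by more than sampling noise, with a mean chi-square per gene of at least 2.01. It was 3.9 to 5.36 within Kyn with inhibitor and 2.01 to 2.12 within DMSO with inhibitor, while the fit pools the spread of all groups.

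Named genes were the AhR readouts, the 12 highest and 12 lowest called genes whose level over the 6 libraries averaged 10 TPM or more, the 6 highest and 6 lowest interactions with that mean over 12 libraries, and up to 4 members of each list described with the largest change, except 2 genes that are not reported here. The members, the lists and the tests were chosen with earlier results of these data known, and the heat shock, chemokine, hypoxia and amino acid transporter lists were taken up for description after their values here were seen. Same-numbered libraries of different groups did not deviate together (r of -0.02 to 0.03 over 18 pairs), so no pairing was used. Per-sample columns left out of that file numbered 0.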

Additional observations from a re-analysis of the deposited data

Results flagged for a closer look

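The response to Kyn with the inhibitor differed from that without it, by the interaction test across all genes in limma, in 65 of the 117 tested genes named above. Among all tested genes the share was 8.94%. Many named genes were picked for large values in these same libraries, so a higher share among them was built in by that choice. Counting the 6 UGT1A entries once and both SAA4 entries once, as each set shares its reads, leaves 59 measurements. The test was on the interaction on the log2 scale, the response with the inhibitor minus that without, and the values below are that interaction relative to the median gene (-0.12), which the test did not take off. With equal medians 59 of the 65 entries still passed, and MATN3, MYC, ICAM1, HSPA1A, DDIT4 and PGK1 did not (adjusted p 0.0665 to 0.286). They come from 3 libraries in each of 4 groups, and no cause was tested.

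Below 0 stood the shared UGT1A reads, at -2.75 for UGT1A1, -2.70 for UGT1A8, UGT1A7, UGT1A5, UGT1A3 and UGT1A6. Secreted and acute phase genes below 0 were SPINK1 (-2.25), HP (-1.49), FGA (-1.16), SERPINA3 (-1.02) and C3 (-0.44), with C5-OT1 at -0.78. Immediate early genes were EGR1 (-1.44), FOS (-1.24) and MYC (-0.57). Biliary markers were CLDN4 (-0.84), KRT19 (-0.82) and SPP1 (-0.60).

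The stress-related genes were SDF2L1 (-0.69), MGST1 (-0.66), SLC7A11 (-0.57), MANF (-0.50), ASNS (-0.45), NQO1 (-0.39), P4HB (-0.32) and DDIT4 (-0.24). The heat shock genes were HSPB1 (-0.76), HSPA1B (-0.50) and HSPA1A (-0.28), and ICAM1 (-0.47), IL32 (-0.34) and PGK1 (-0.21) also stood below 0. Others below 0 were ODAM (-1.59), NOTUM (-1.35), BAAT (-1.18), IFITM3 (-1.10), IFITM2 (-1.01), TNFRSF21 (-0.89), MATN3 (-0.84), SEMA3B (-0.78) and TUBB3 (-0.71).

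Above 0 stood SAA4 (2.68), SAA2-SAA4 (2.66), MT1G (2.35), LOC101929633 (1.98), HSD17B2 (1.78) and SNORD79 (1.73). Bile acid export was represented by SLC51B (1.84) and SLC51A (1.74). Lipid genes were CREB3L3 (1.38), ELOVL6 (0.88), HMGCS1 (0.66), DHCR7 (0.62) and SC5D (0.54). Plasma proteins were TTR (1.04), ALB (0.96) and SERPINC1 (0.80). Others were SLC25A47 (1.36), HAL (1.22), PDLIM2 (1.14), MTRNR2L1 (0.89), MTRNR2L8 (0.85), GSTA1 (0.84), TNFSF10 (0.78) and LGALS2 (0.65).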

How the results depend on the processing

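Scaling moved the balance of directions most. With Kyn under the inhibitor, 1279 genes were called (205 higher and 1074 lower). With equal medians they were 765 (371 and 394), with quantile normalization 748 (323 and 425), and with voom on recovered reads with TMM scaling 1104 (562 and 542). The interaction counts of 249 above 0 and 806 below became 464 and 314 with equal medians, 372 and 364 with quantile normalization and 695 and 460 with voom. Without a filter beyond a TPM above 0 in 1 library, the interaction gave 636 genes (163 and 473). Without the inhibitor, 1070 genes were lower with voom, against 654. Leaving out 1 library at a time gave 749 to 1303 genes with the inhibitor (113 to 209 higher, 636 to 1094 lower), 460 to 757 higher without it, and 0 to 1 genes for the inhibitor alone in DMSO, a fit with fewer libraries assuming like spread in all groups. The replicate block, which pairs libraries by number only, gave 1278 genes with the inhibitor, 1414 without it and 1042 for the interaction.

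Of 1848 recalculated fold changes of 117 named genes, 1655 kept direction and call, 175 lost the call and 11 gained it. ALB turned to -0.38 with quantile normalization. ARNT, not called in any setting, turned to 0.036 with quantile normalization, 0.050 with equal medians and 0.051 with voom, and ranged from -0.19 to 0.059 without 1 library. LOC101929633 ranged from -0.052 to 0.60. Beyond those settings that change composition or drop libraries, the cause was not tested. Leaving out entries under 200 bases was chosen after seeing the data. Genes near 1 TPM rest on few reads, which limits what can be called there.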
